A study of Homo sapiens with 15 samples.

Results

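The comparison described here sets 3 libraries of MCF-10A cells edited with NF1 guide RNA 1 against 3 libraries of MCF-10A cells that carried an empty vector. These are 6 of the 15 RNA-seq libraries of the series, and they were chosen by their labels alone. All genes that passed a filter on low counts were examined, which left 17457 of the 60721 gene identifiers in the count table. MCF-10A is a non-tumorigenic human mammary epithelial line that is widely used to study how epithelial cells respond to growth factor and RAS signals.

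Poly(A) RNA was sequenced from 5 genotypes with 3 biological replicates each. The labels name them as parental cells, empty vector (EV), and NF1 mutants made with guide 1 (NF1-g1), with guide 2, or with both guides. No group received a treatment, and every group grew in the same medium with horse serum, EGF, insulin, hydrocortisone and cholera toxin. The labels do not say whether an edited line was 1 clone or a pool, so a difference between lines and an effect of the edit cannot be told apart within a single pair of groups. P-values measure the spread between these libraries. The 6 libraries held 52229514 to 78976917 counts, and 3 counts corresponded to 0.038 to 0.0574 CPM (a gene's counts scaled to a common library total), a floor that covers counting error only.

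NF1 encodes neurofibromin, which switches RAS off by speeding the hydrolysis of its bound GTP. Active RAS drives the RAF-MEK-ERK kinase cascade, and the cascade limits itself through feedback genes of the Sprouty, SPRED and DUSP families. Epithelial cells such as MCF-10A are held together by E-cadherin junctions and desmosomes and are anchored to laminin by integrins and collagen XVII. The transcription factor p63 and the basal keratins mark the basal layer of the mammary epithelium.

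NF1 itself, on chromosome 17 from 31094927 to 31382116 (GRCh38, GENCODE 29), was lower in every guide 1 library. It stood at 115, 123 and 133 CPM in the empty-vector libraries and at 43.6, 47.3 and 51.3 CPM in the guide 1 libraries. The groups did not overlap, and the 3 guide 1 values lay close together. The mean was 38.3% of the empty-vector mean, with a log2 fold change of -1.40 (SE 0.0888, n = 3 against 3, edgeR quasi-likelihood adjusted p = 4.71e-06). An exact two-sided permutation test over the 6 values gave p = 0.1, the smallest that 3 against 3 can give. The label of the edited gene therefore matches its RNA level, although transcript was still present. In guide 2 libraries NF1 read 27.0, 31.4 and 29.8 CPM, and guide 1 was 0.69 higher than guide 2 on the log2 scale (adjusted p = 0.01215). Of 83 other protein-coding genes tested within 5 Mb of NF1, 5 passed the test, against 5.88% of all genes tested, and the median log2 fold change was -0.02. EVI2A and EVI2B, which lie inside an NF1 intron on the opposite strand, did not pass (log2 fold changes of 0.23 and -0.20, adjusted p = 0.691 and 0.695).

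Across the transcriptome, 1026 of 17457 genes passed an adjusted p of 0.05, which is 5.88% of the genes tested. Of these, 798 were lower in guide 1 (4.57%) and 228 were higher (1.31%). The libraries of the groups did not overlap for any of the 1026, against 36.2% of all genes tested, or 18.1% in each direction. The lower genes also moved further: 383 of them changed at least 2-fold (2.19% of genes tested) and 138 at least 8-fold, against 89 (0.51%) and 9 of the higher genes, so that 2.7% of genes tested were called and changed at least 2-fold. At an unadjusted p under 0.05 there were 3736 genes (21.4%). The median log2 fold change of all genes tested was 0.02. Counts of list members given below are to be read beside these shares of all genes tested. With the replicate number as a block, which pairs libraries of equal number, 567 genes passed.

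**Figure D1:**
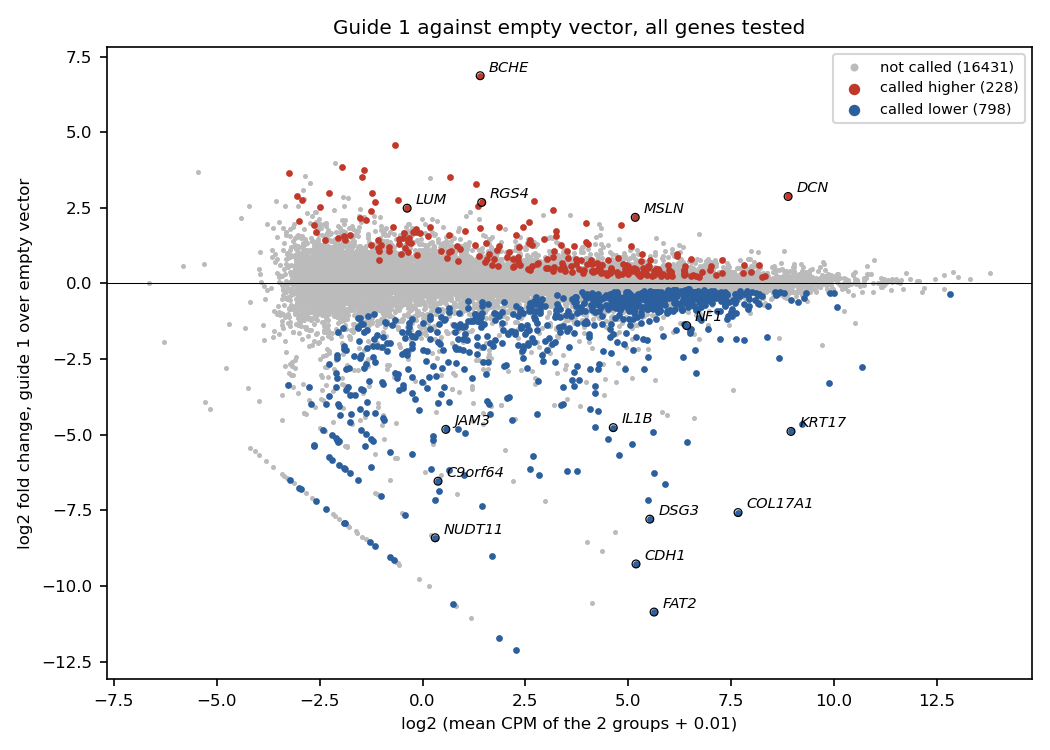
Log2 fold change of guide 1 over empty vector (vertical axis) against the log2 of the mean CPM of both groups (horizontal axis), 1 point per gene tested; blue marks the 798 genes called lower, red the 228 called higher and grey the rest. The blue points reach much further from 0 than the red ones, and the straight line of points at the lower left holds genes at 0 counts in every guide 1 library, whose fitted fold change is no bound.

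The third replicate stood apart in both groups. Its log2 CPM correlated with the other guide 1 libraries at 0.989 and 0.9887, while the first and second correlated at 0.9945; the values in the empty vector were 0.9905 and 0.9904 against 0.9948. Outside the comparison, guide 2 replicate 2 and parental replicate 2 differed widely from their own groups for epithelial genes, and both enter the shared estimate of the spread. Leaving guide 2 replicate 2 out of that estimate raised the number of genes that passed to 3236, which included all 1026. Leaving out guide 1 replicate 1 or 2 lowered it to 282 or 215, and leaving out empty-vector replicate 3 lowered it to 249. Without the third replicate of both groups 161 genes passed.

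Many genes of cell junctions were lower in guide 1 than in the empty vector. Of 27 tested genes of adherens junctions, desmosomes, tight junctions and epithelial splicing, 11 fell, none rose, and the median log2 fold change was -2.16. For 24 of the 27 every guide 1 library was below every empty-vector library. Parental against empty-vector cells gave a list median of -0.7, and no gene of the list passed. For guide 1 against parental cells the median was -1.15, and 1 gene passed, JAM3. CDH1, which encodes E-cadherin, the main adhesion molecule of epithelial junctions, read 44.1, 46.8 and 127 CPM in the empty vector and 0.0192, 0.152 and 0.158 CPM in guide 1. Those guide 1 values rest on 23 counts in all, against 11880 in the empty vector. The empty-vector libraries also differed among themselves, replicate 3 being the highest. The log2 fold change was -9.27 (SE 2.45, adjusted p = 0.0446). The other groups were not uniform: guide 2 libraries read 0.0361, 91.4 and 0.0434 CPM, both-guide libraries 23.4, 17.3 and 14.8 CPM, and parental libraries 42.9, 1.79 and 37.8 CPM. Guide 1 values thus lay below those of the other groups except guide 2 replicates 1 and 3, which were as low, and the CDH1 difference from guide 2 or from parental cells did not pass (adjusted p = 0.317 and 0.168).

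Desmosomes are the spot junctions that tie keratin filaments of neighbouring cells together. The RNA of several of their cadherins was lower in the same libraries, and protein was not measured. DSG3, desmoglein 3, read 67.1, 72.3 and 135 CPM in the empty vector and 0.421, 0.342 and 0.49 CPM in guide 1 (log2 fold change -7.79, SE 1.94, adjusted p = 0.0352). DSC3 fell from 77.0, 77.2 and 136 CPM to 0.479, 0.481 and 2.85 CPM (log2 fold change -6.27, adjusted p = 0.04985). DSC2 read 31.2, 31.0 and 69.6 CPM against 1.07, 0.684 and 2.07 CPM (log2 fold change -5.13, adjusted p = 0.0251). No guide 1 value of these desmosomal cadherins reached 3 CPM, and replicate 3 was the highest empty-vector library for each. Further members that fell were DSP, desmoplakin, by 2.47, CLDN1, a tight junction claudin, by 2.84, and JUP, plakoglobin, by 1.15 on the log2 scale. The catenin genes CTNNB1 and CTNNA1, whose proteins link cadherins to actin, did not pass, with log2 fold changes of -0.13 and -0.15. FAT2, a giant protocadherin of squamous epithelia and outside this list, read 71.4, 93.5 and 131 CPM against 0, 0.0507 and 0.0949 CPM (log2 fold change -10.87, adjusted p = 0.0474).

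JAM3, a junctional adhesion molecule, differed from the rest of the junction genes in its spread. It read 2.89, 2.21 and 3.41 CPM in the empty vector and 0.115, 0.076 and 0.111 CPM in guide 1. All 9 other libraries lay between 0.942 and 7.02 CPM, above every guide 1 library. The log2 fold change was -4.83 against the empty vector (SE 0.301, adjusted p = 4.71e-06), -5.48 against parental cells, -3.55 against guide 2 and -6.02 against both guides, and each passed the test. The guide 1 level rests on 19 counts.

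Junction calls depended on the spread that was assumed. The 11 genes became 2 with the replicate number as a block and 21 with a model of the 6 libraries alone. Without guide 1 replicate 1, 2 or 3 the number was 1, 1 and 2, and without empty-vector replicate 1, 2 or 3 it was 5, 5 and 1. DSC2, FAT2, DSP, CLDN1 and JUP missed the threshold with the block (adjusted p = 0.0517, 0.0884, 0.08825, 0.0733 and 0.0893). CDH1, DSG3 and DSC3 lost their call with the block (adjusted p = 0.0874, 0.0728 and 0.094) and when any 1 of the 6 libraries was left out, while their log2 fold changes kept their sign. FAT2 also lost its call when any 1 of the 6 libraries was left out (highest adjusted p = 0.179), and DSC2 passed in 2 of those fits (highest adjusted p = 0.125). JAM3 passed with the block and in each fit that left out 1 library.

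**Figure D2:**
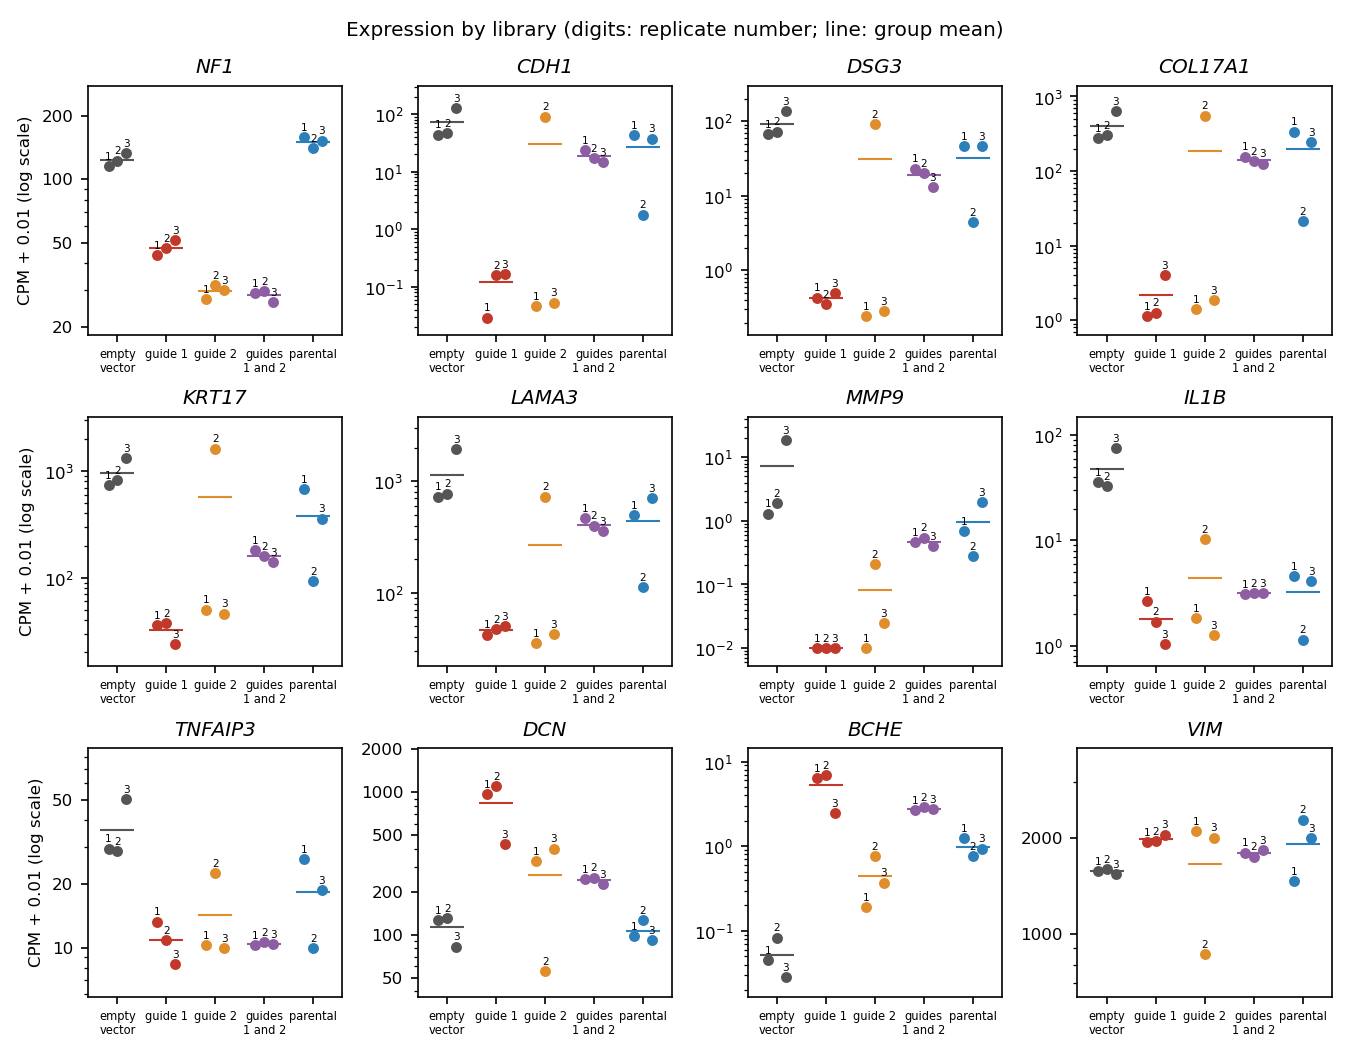
CPM plus 0.01 on a log axis for 12 genes in each of the 15 libraries (points, numbered by replicate) with group means (lines); every panel has its own range. CDH1, DSG3, COL17A1, KRT17 and LAMA3 are near the bottom in the guide 1 libraries and in guide 2 replicates 1 and 3 and high in guide 2 replicate 2; DCN and BCHE have their highest group mean in guide 1; VIM shows no comparable gap between guide 1 and the empty vector.

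Of the genes that anchor cells to the matrix beneath them, some fell and others did not pass. COL17A1, the transmembrane collagen of hemidesmosomes, read 279, 303 and 630.1 CPM in the empty vector and 1.13, 1.25 and 4.05 CPM in guide 1 (log2 fold change -7.58, SE 2.00, adjusted p = 0.0446). LAMA3, the alpha chain of laminin-332, read 728, 774 and 1925 CPM against 42.1, 47.0 and 50.3 CPM (log2 fold change -4.64, SE 1.075, adjusted p = 0.0253). No libraries of the 2 groups overlapped for these genes, and the third empty-vector library was again the highest. LAMB3, the beta chain, fell less, by 0.78 on the log2 scale (adjusted p = 0.0284). Among 18 tested integrins, receptors for the matrix, 4 fell and none rose, with a median of -0.09. ITGB6, the beta chain of an epithelial integrin that releases active TGF-beta, read 83.3, 82.7 and 189 CPM against 1.11, 1.22 and 1.31 CPM (log2 fold change -6.62, SE 1.32, adjusted p = 0.01445). ITGA2, a collagen receptor chain, fell by 1.84, whereas ITGB4 and ITGB1 gave -0.12 and 0.05 and did not pass. With the block, COL17A1 and LAMA3 missed the threshold (adjusted p = 0.088 and 0.057), and ITGB6 kept its call. COL17A1 passed in none of the 6 fits that left out 1 library (highest adjusted p = 0.174), and LAMA3 in 2 of them (highest adjusted p = 0.114). Without guide 1 replicate 1 or 2 or empty-vector replicate 3, ITGB6 did not pass (highest adjusted p of 0.0759).

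The list of basal mammary genes and keratins showed the same direction, with 6 of 20 tested genes lower, none higher and a median log2 fold change of -1.92. Its median was -0.66 for parental against empty-vector cells and -1.21 for guide 1 against parental cells. No gene of the list passed in the latter comparison. KRT17, a stress keratin of basal cells, read 733, 816 and 1327 CPM in the empty vector and 35.9, 37.6 and 24.1 CPM in guide 1 (log2 fold change -4.89, SE 1.22, adjusted p = 0.0346). CDH3, P-cadherin, fell from 130, 137 and 264 CPM to 22.7, 25.2 and 20.5 CPM (log2 fold change -2.97, adjusted p = 0.0369). TP63, which encodes p63, stood at 43.1, 41.4 and 68.0 CPM against 0.153, 0.203 and 0.142 CPM, yet missed the threshold (log2 fold change -8.23, adjusted p = 0.0507). KRT14 and KRT5, the paired keratins of basal cells, gave -4.45 and -1.32 (adjusted p = 0.0839 and 0.2425). For TP63, KRT14 and KRT5 too, no guide 1 library reached the lowest empty-vector library. Keratin genes have close copies, and reads shared between copies could not be separated. As a check of the epithelial label, the keratin genes KRT5 and KRT18 were still at 625 to 1001 CPM and 134 to 135 CPM in guide 1, while CDH1 and TP63 were near 0. KRT18 itself was called lower, from 185, 185 and 204 CPM (log2 fold change -0.52, adjusted p = 0.014), and lost its call without guide 1 replicate 1 or 2 or empty-vector replicate 3 (highest adjusted p = 0.0664). Of 11 luminal genes tested 2 fell, none rose and the median was -0.52. With the replicate block 3 genes of the list passed, and with the 6 libraries alone 14 did; KRT17 and CDH3 missed the threshold with the block (adjusted p = 0.0655 and 0.0727). No gene of the list passed without guide 1 replicate 1 or 2 or without empty-vector replicate 3, and 4, 4 and 1 passed without empty-vector replicate 1, empty-vector replicate 2 and guide 1 replicate 3. KRT17 and CDH3 passed in none of these 6 fits (highest adjusted p = 0.133 and 0.148).

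Of 23 tested genes of keratinocyte differentiation, 4 fell, none rose and 19 did not pass. The median log2 fold change was -5.99, or -3.63 when the 8 genes at 0 counts in guide 1 were held at the bound that 3 counts allow. For guide 1 against parental cells the fitted median, with no such bound, was -4.05. For parental against empty-vector cells it was -0.59, and no gene of the list passed in either comparison. S100A8 and S100A9 encode the calcium-binding partners of calprotectin, an antimicrobial complex. S100A9 read 14, 15.5 and 37.9 CPM against 0.23, 0.355 and 0.332 CPM (log2 fold change -6.19, adjusted p = 0.0221), and S100A8 fell by 6.15 (adjusted p = 0.0135). IVL, involucrin of the cornified envelope, fell by 6.16 and GRHL1, a grainyhead factor, by 2.12 on the log2 scale. RNASE7, an antimicrobial ribonuclease of skin and outside this list, read 6.74, 7.82 and 14.2 CPM in the empty vector. It had no count in guide 1, at least 621-fold lower (adjusted p = 0.0201). GRHL1 missed the threshold with the block (adjusted p = 0.0656). Without guide 1 replicate 1 or 2 no gene of this list passed, without guide 1 replicate 3 there were 2, and without empty-vector replicate 3 there was 1. RNASE7 lost its call without guide 1 replicate 1 or 2 or empty-vector replicate 3 (highest adjusted p = 0.0839).

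RefSeq promoter windows (GRCh38.p14, from 250 bases before a gene's start to 50 after it) were available for 11751 of the genes tested. They were searched on both strands for the E-box CACCTG, which Snail and ZEB repressors can bind, for the AP-1 site TGANTCA and for the kappa-B consensus. The grainyhead site AACCNGTT was searched as well. The E-box was present in 32.5% of 286 promoters of genes at least 2-fold lower, in 25% of the 641 promoters of all lower genes, in 12.9% of 155 promoters of higher genes and in 18.6% of all promoters of tested genes. The AP-1 site was present in 11.9%, 8.58%, 7.1% and 5.11% of the same sets, and the kappa-B consensus in 10.1%, 9.67%, 7.1% and 6.47%. For the grainyhead site the shares were 2.45%, 1.87%, 1.29% and 1.36%. Among all 27305 promoters in the RefSeq table, tested or not, the shares were 20.6% for the E-box, 7.76% for AP-1, 5.72% for kappa-B and 1.73% for grainyhead. A match is a description of the letters and shows no binding. The junction list held an E-box in 6 of 19 promoters and an AP-1 site in 2. The basal list held an E-box in 4 of 10 promoters and an AP-1 site in 1, that of LAMA3. The windows of DSC2 (minus strand, chr18:31102372-31102671) and LAMA3 (plus strand, chr18:23872770-23873069) are shown. They are examples of windows with a match, from a desmosomal and a laminin gene of the groups above. Capitals mark 1 E-box on the complementary strand in DSC2, 156 bases before the start, and 2 AP-1 sites in LAMA3, 125 and 69 bases before it. LAMA3 also holds 1 E-box, starting 73 bases before its start, whose last 2 bases are the first 2 of the second AP-1 site.
DSC2: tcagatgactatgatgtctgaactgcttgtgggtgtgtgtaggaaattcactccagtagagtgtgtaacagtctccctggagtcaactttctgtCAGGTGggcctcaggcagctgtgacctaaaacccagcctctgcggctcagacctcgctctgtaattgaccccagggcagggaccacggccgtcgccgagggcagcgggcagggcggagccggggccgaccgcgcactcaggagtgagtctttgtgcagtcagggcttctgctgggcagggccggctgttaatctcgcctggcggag
LAMA3: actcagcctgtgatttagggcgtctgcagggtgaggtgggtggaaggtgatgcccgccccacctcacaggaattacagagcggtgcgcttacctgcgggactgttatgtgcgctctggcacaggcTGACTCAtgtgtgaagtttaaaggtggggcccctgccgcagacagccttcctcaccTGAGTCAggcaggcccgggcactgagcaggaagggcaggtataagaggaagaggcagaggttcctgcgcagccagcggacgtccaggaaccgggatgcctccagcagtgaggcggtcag

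Of 20 tested genes that mark mesenchymal cells, 4 fell, none rose and the median was 0.13. For 6 of the 20 every guide 1 library was above every empty-vector library, and for another 6 every one was below. Among all genes tested the share was 18.1% in each direction. SNAI1, the Snail repressor of E-cadherin, was itself lower: it read 2.42, 2.99 and 3.06 CPM in the empty vector and 0.574, 0.899 and 0.902 CPM in guide 1 (log2 fold change -1.83, SE 0.2055, adjusted p = 8.45e-04). CDH11, a mesenchymal cadherin, fell by 5.03, the matrix glycoprotein gene TNC by 2.21 and COL1A1, a fibrillar collagen chain, by 1.61. VIM, the vimentin filament gene, read 1577, 1599 and 1543 CPM against 1947, 1954 and 2051 CPM, higher in every guide 1 library but not past the threshold (log2 fold change 0.32, adjusted p = 0.493). ZEB1, ZEB2 and CDH2, known for their part in loss of epithelial character, gave 0.40, 0.67 and 0.17 and did not pass (adjusted p = 0.492, 0.335 and 0.842). These last genes and the other members named without a call were picked after their values were seen. In a model of the 6 libraries alone, VIM, ZEB1 and ZEB2 passed (adjusted p = 0.0157, 0.0205 and 0.00666) and CDH2 did not (adjusted p = 0.238). In that model 5 genes of the list were higher and 5 lower, and limma-voom with quality weights called 7 higher and 6 lower.

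DCN and LUM, a pair of proteoglycan genes, were higher in guide 1. DCN, decorin, which binds collagen fibrils and several growth factors and receptors, read 127, 130 and 82.3 CPM in the empty vector and 965, 1095 and 432 CPM in guide 1. All guide 1 libraries were above all other libraries of the series, although replicate 3 stood closest to them. The log2 fold change was 2.87 (SE 0.5525, adjusted p = 0.01235). LUM, lumican of the same family, rose from 0.333, 0.258 and 0.0933 CPM to 1.26, 1.54 and 1.08 CPM (log2 fold change 2.49, adjusted p = 0.0168), and it was also 2.97 above the both-guide lines (adjusted p = 0.0415). In all, 2 of 25 matrix proteins and proteoglycans rose and 2 fell, with a median of 0.23, and no gene of that list was called higher without guide 1 replicate 2 or empty-vector replicate 3. DCN and LUM are fibroblast markers too. The summed level of 10 fibroblast markers was 236 to 251 CPM in the empty vector and 501 to 1160 CPM in guide 1. Most of the guide 1 level was DCN, while COL1A1 and FAP of that list fell. Whether fewer or more cells of a type or less or more RNA per cell lies behind such a level cannot be told apart in bulk RNA. Other cell types gave little signal: leukocyte markers summed to 15.5 to 20.7 CPM and 7.99 to 11 CPM with CD3E at 0, and endothelial markers to 3.0 to 5.37 CPM and 6.52 to 13.3 CPM with CLDN5 and EMCN at 0. The part of other cells in these results was not tested further.

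The other steep rises were in genes of varied function. BCHE, butyrylcholinesterase, which hydrolyses choline esters, read 0.035, 0.0738 and 0.0187 CPM in the empty vector and 6.32, 6.86 and 2.47 CPM in guide 1. The empty-vector values rest on 7 counts. The log2 fold change was 6.87 (SE 0.634, adjusted p = 2.14e-04), and guide 1 was also 3.60 above guide 2 (adjusted p = 0.0186). Parental cells too were above the empty vector for BCHE, at 0.752 to 1.25 CPM (log2 fold change 4.43, adjusted p = 0.00385). CRISP3, a secreted cysteine-rich protein gene, rose by 4.56, PDE9A, a cyclic GMP phosphodiesterase gene, by 3.51 and EEF1A2, a translation elongation factor gene, by 3.29 on the log2 scale. GALC, a lysosomal galactosidase gene, rose from 1.72, 2.03 and 1.38 CPM to 12.8, 11.8 and 9.29 CPM (log2 fold change 2.71, adjusted p = 0.0139). RGS4, which turns off G-protein signals, rose from 0.805, 0.848 and 0.522 CPM to 5.25, 5.12 and 3.66 CPM (log2 fold change 2.68, adjusted p = 0.00947). MSLN, mesothelin, a surface glycoprotein, read 12.6, 12.3 and 13.8 CPM against 63.9, 69.0 and 44.1 CPM (log2 fold change 2.18, SE 0.311, adjusted p = 0.00349). Groups did not overlap for any of these, and guide 1 replicate 3 was the lowest guide 1 library for BCHE, GALC, RGS4 and MSLN. BCHE and MSLN passed when any 1 of the 6 libraries was left out. DCN lost its call without guide 1 replicate 2 or empty-vector replicate 3, with a highest adjusted p of 0.0767. RGS4 and CRISP3 lost theirs without empty-vector replicate 3 (adjusted p = 0.0584 and 0.0504). LUM and GALC did so without guide 1 replicate 1 or 2 or empty-vector replicate 3 (highest adjusted p of 0.0849 and 0.0816), and PDE9A and EEF1A2 passed in 2 and 1 of the 6 such fits (highest adjusted p of 0.0688 and 0.116).

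Secreted signals of inflammation were lower in guide 1 than in the empty vector. Of 22 tested cytokines and chemokines, 7 fell and 1 rose, with a median log2 fold change of -1.34. Parental against empty-vector cells gave a list median of -0.87, and 5 genes of the list passed. Guide 1 against parental cells gave -0.3, and no gene of the list passed there. IL1B, interleukin-1 beta, read 35.9, 32.6 and 75.1 CPM in the empty vector and 2.64, 1.68 and 1.03 CPM in guide 1 (log2 fold change -4.77, SE 0.794, adjusted p = 0.00668). IL24, a cytokine of the interleukin-10 family, fell from 3.48, 2.67 and 2.85 CPM to 0.632, 0.456 and 0.38 CPM (log2 fold change -2.63, SE 0.257, adjusted p = 2.77e-04). CXCL5, a neutrophil chemokine, read 40.8, 34.3 and 28.6 CPM against 5.44, 4.15 and 12.8 CPM (log2 fold change -2.22, adjusted p = 0.00577). The groups stayed apart for each, and guide 1 replicate 3 was the highest guide 1 library for CXCL5 but the lowest for IL1B and IL24. CCL28, a mucosal chemokine, rose by 0.79 (adjusted p = 0.0391, and 0.0691 with the block), and CXCL8 missed the threshold at -1.32 (adjusted p = 0.066). IL1B, IL24 and CXCL5 passed with the replicate block (adjusted p = 0.0206, 0.00191 and 0.0153) and when any 1 of the 6 libraries was left out. Parental cells were also below the empty vector for IL1B and IL24, by 3.92 and 2.16 on the log2 scale (adjusted p = 0.0153 and 0.00131). Guide 1 and parental cells did not differ for them past the threshold (adjusted p = 0.489 and 0.305). These comparisons share libraries. With the block 5 cytokines passed as lower and none as higher, and 3 or 4 passed as lower when 1 library was left out.

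Targets of NF-kB that feed back on it moved the same way, with 7 of 18 lower, none higher and a median of -0.66. The list median was -0.40 for parental against empty-vector cells and -0.34 for guide 1 against parental cells, where no gene of it passed. TNFAIP3, the ubiquitin-editing enzyme A20, read 29.4, 28.5 and 50.3 CPM against 13.3, 10.8 and 8.31 CPM (log2 fold change -1.76, SE 0.381, adjusted p = 0.02). ICAM1, a leukocyte adhesion molecule, fell from 27.1, 25.9 and 30.5 CPM to 13.7, 12.8 and 13 CPM (log2 fold change -1.09, adjusted p = 0.00754). TNIP3, an A20-binding protein gene, fell by 2.10. TNFAIP3 passed in 2 and TNIP3 in 3 of the 6 fits that left out 1 library (highest adjusted p = 0.0991 and 0.0727). ICAM1 passed in all 6. NFKBIA, which encodes an inhibitor of NF-kB, gave -0.20 and did not pass (adjusted p = 0.256). With the block 6 of the list were lower. Leaving out guide 1 replicate 1, 2 or 3 gave 2, 2 and 4, and leaving out empty-vector replicate 1, 2 or 3 gave 5, 6 and 1. PYCARD, the inflammasome adaptor ASC, had 200 counts in the empty vector and none in guide 1, at least 78.6-fold lower (adjusted p = 7.11e-04). TREM2, an immune receptor gene, had 243 counts against 1, a ratio of 286 with a 95% counting interval of 50.9 to 11400. The kappa-B consensus was present in 8 of 16 promoters of the NF-kB list and in 7 of 17 of the cytokine list (41.2%), against 6.47% of all promoters of tested genes. These lists hold known targets of that factor, so the shares describe the lists and not the change. The windows of CXCL5 (minus strand, chr4:73998628-73998927) and TNFAIP3 (plus strand, chr6:137867009-137867308) are shown because both genes fell and both hold the consensus. In CXCL5 the capitals cover 2 matches that overlap by all but 1 base, and in TNFAIP3 they mark 2 separate matches, 67 and 55 bases before the start.
CXCL5: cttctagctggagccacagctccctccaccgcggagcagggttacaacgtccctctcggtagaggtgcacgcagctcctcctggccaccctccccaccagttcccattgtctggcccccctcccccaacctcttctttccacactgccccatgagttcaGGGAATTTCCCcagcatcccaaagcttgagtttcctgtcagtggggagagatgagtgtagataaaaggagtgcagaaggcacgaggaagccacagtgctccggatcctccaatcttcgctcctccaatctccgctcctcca
TNFAIP3: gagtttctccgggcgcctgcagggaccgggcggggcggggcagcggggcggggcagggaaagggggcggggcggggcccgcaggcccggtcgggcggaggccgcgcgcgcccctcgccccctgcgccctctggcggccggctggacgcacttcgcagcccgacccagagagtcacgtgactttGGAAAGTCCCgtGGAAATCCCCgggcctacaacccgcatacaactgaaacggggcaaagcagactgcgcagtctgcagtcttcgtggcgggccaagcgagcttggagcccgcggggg

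Several proteases that cut the matrix were lower in guide 1 than in the empty vector. Of 24 tested genes of matrix proteases and the plasminogen system 6 fell, none rose and the median was -0.23. Parental against empty-vector cells gave a list median of -0.47. Guide 1 against parental cells gave -0.03, and no gene of the list passed there. MMP9, gelatinase B, read 1.3, 1.88 and 18.5 CPM in the empty vector and had no count in guide 1, at least 468-fold lower (adjusted p = 0.01205), with the floor taken as 3 counts over the 3 guide 1 libraries. Without empty-vector replicate 3, which held most of the reads, that bound was 103-fold. PLAU, urokinase, which activates plasminogen, fell from 109, 115 and 256 CPM to 35, 34.6 and 36.5 CPM (log2 fold change -2.20, SE 0.305, adjusted p = 0.003115). MMP14, a membrane-bound collagenase, read 201, 213 and 337 CPM against 121, 116 and 122 CPM (log2 fold change -1.08, adjusted p = 0.00577). PLAU and MMP14 passed in each fit that left out 1 library, and MMP9 lost its call without guide 1 replicate 2 (adjusted p = 0.0562). In each of these the third empty-vector library was the highest and the guide 1 libraries lay together. ADAM19, a sheddase, fell by 1.83, and MMP10 and MMP1, the stromelysin and collagenase, had 117 and 76 counts against 3 and 1. TIMP1, an inhibitor of the MMPs, gave 0.76 and did not pass (adjusted p = 0.392). With the block 6 genes of the list passed, and between 3 and 6 passed when 1 library was left out. The 6 libraries alone gave 10 lower and 5 higher, and limma-voom 10 lower and 8 higher. The summed level of the list was 7670 to 8500 CPM in the empty vector and 8650 to 10600 CPM in guide 1.

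**Figure D3:**
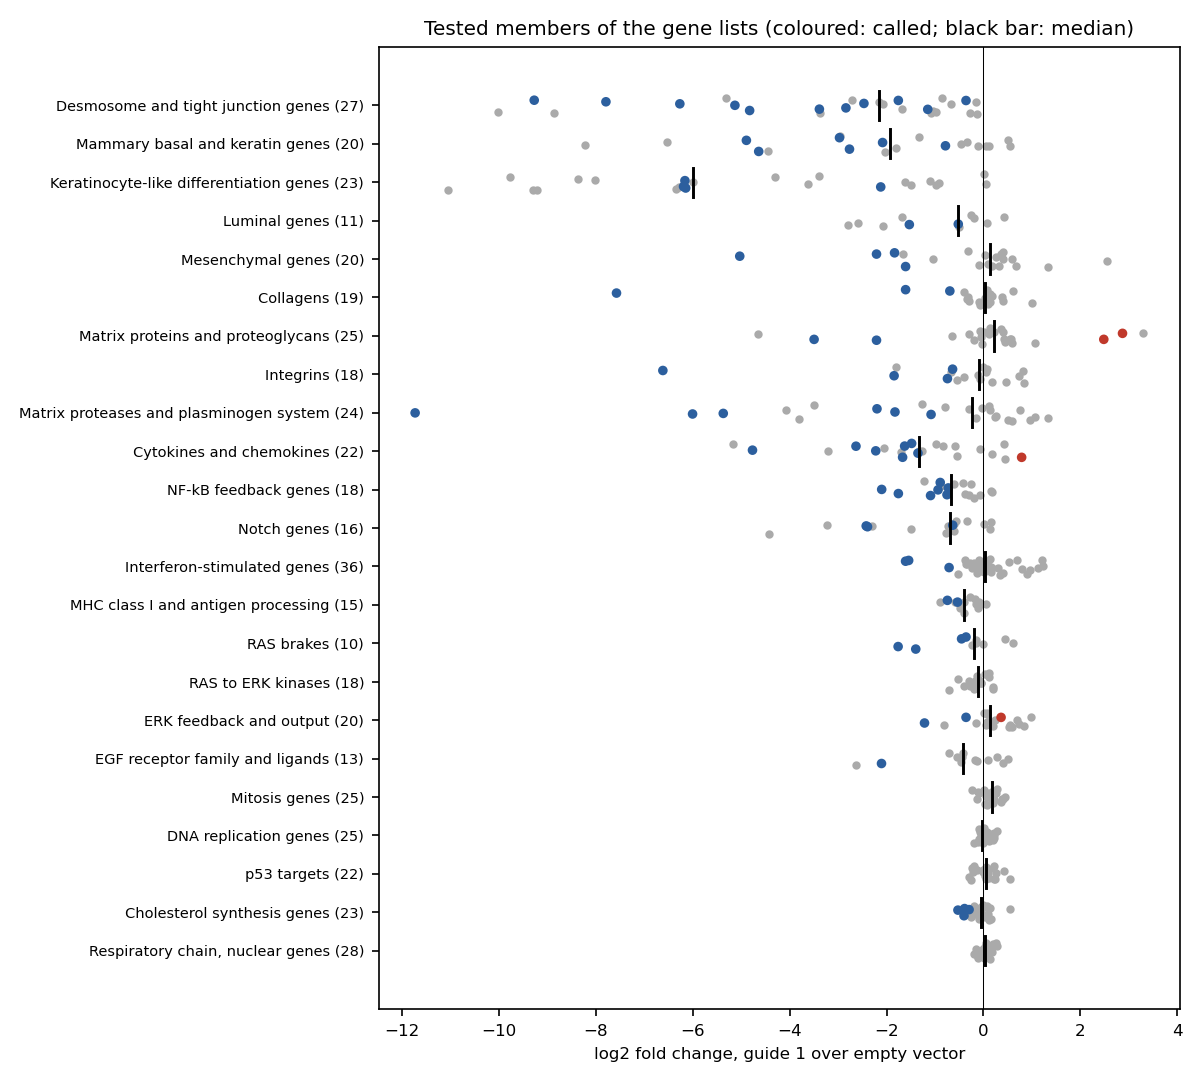
Log2 fold change of guide 1 over empty vector (horizontal axis) for the tested members of 23 gene lists (rows, with the number tested); blue points are called lower, red points called higher, grey points not called, and black bars are list medians. Junction, basal and keratinocyte genes extend far to the left, whereas the mitosis list, with a median of 0.19, and the replication, p53 and respiratory lists have no coloured point.

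Among the brakes on RAS, 4 of 10 tested were lower, none was higher and the median was -0.20. Besides NF1, DAB2IP, a RAS GTPase-activating protein, read 46.2, 50.02 and 70.9 CPM in the empty vector and 16.4, 17.2 and 16.1 CPM in guide 1 (log2 fold change -1.76, adjusted p = 0.0379). RASA2, of the same enzyme class, fell by 0.45 (adjusted p = 0.0465), and SPRED2, which brings neurofibromin to the membrane, fell by 0.36 (adjusted p = 0.0159). RASA1, RASAL2, RASA3 and SPRED1 did not pass, with log2 fold changes of -0.24, -0.14, 0.44 and -0.16. DAB2IP and RASA2 lost their calls with the block (adjusted p = 0.0729 and 0.0843) and when any 1 library was left out, and SPRED2 lost its call without guide 1 replicate 2 or empty-vector replicate 3 (highest adjusted p = 0.0699). DAB2IP varied outside the comparison like the junction genes, at 71.7 CPM in guide 2 replicate 2 and 18 to 18.9 CPM in the other guide 2 libraries. No gene of the RAS-RAF-MEK-ERK cascade passed among 18 tested in the edgeR model of all 15 libraries. In it 6 had an unadjusted p under 0.05, all lower, DESeq2 called 3 lower, and limma-voom with quality weights called 8 lower and 2 higher. The edgeR model of the 6 libraries alone called 3 lower, or 7 with the block, and without guide 1 replicate 3 the 15-library model called 1 lower.

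Of 20 tested feedback and output genes of ERK, 1 rose, 2 fell and the median was 0.15. Among all genes tested 1.31% rose and 4.57% fell. The 6 libraries alone gave 4 higher and 3 lower, DESeq2 2 and 2, and limma-voom 11 and 4. For 6 of the 20 every guide 1 library was above every empty-vector library, against 18.1% of all genes tested. SPRY2, a Sprouty inhibitor of receptor signals to ERK, read 16.1, 16.1 and 13.6 CPM against 21.2, 19.6 and 18.6 CPM (log2 fold change 0.37, SE 0.0945, adjusted p = 0.0409). IER3, an immediate early gene, fell from 147, 139 and 173 CPM to 74.4, 72.5 and 52.4 CPM (log2 fold change -1.22, SE 0.21, adjusted p = 0.00756), and SPRED2 is the other. SPRY2 lost its call with the block (adjusted p = 0.0738) and kept it in 1 of the 6 fits that left out a library, the highest adjusted p being 0.205 without empty-vector replicate 3. DUSP6, the ERK phosphatase, stood at 57.9, 57.0 and 57.3 CPM in the empty vector and at 40.1, 35.6 and 22.2 CPM in guide 1 and did not pass (log2 fold change -0.82, adjusted p = 0.1405). EGR1 split the guide 1 libraries, at 213, 225 and 40.5 CPM against 121, 113 and 62.0 CPM (log2 fold change 0.69, adjusted p = 0.506). CCND1, cyclin D1, read 1073, 970.5 and 848 CPM against 707, 675 and 597 CPM, higher in each guide 1 library but not past the threshold (log2 fold change 0.54, adjusted p = 0.253). DUSP4, DUSP5, SPRY4, ETV4, ETV5 and PHLDA1 gave between 0.02 and 0.09. HBEGF, a ligand of the EGF receptor, was the 1 called gene among 13 of that family, at 17.1, 15.0 and 24.9 CPM against 5.23, 4.28 and 3.83 CPM (log2 fold change -2.11, adjusted p = 0.00976). It lost its call without guide 1 replicate 2 (adjusted p = 0.0562), and parental cells were 1.94 below the empty vector for it (adjusted p = 0.0164).

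No gene of mitosis (25 tested) or DNA replication (25 tested) passed in the edgeR model of all 15 libraries, where none had an unadjusted p under 0.05. DESeq2 called none, limma-voom with quality weights called 6 and 13 lower, and without guide 1 replicate 3 the edgeR model called 4 and 5 lower. The replicates of guide 1 differed in these genes: MKI67, a marker of cycling cells, read 385, 409 and 735 CPM, and 415, 486 and 580 CPM in the empty vector. Replicate 3 was the highest in both groups, and the part of cell cycle state in the results above was not tested. Of 36 interferon-stimulated genes 3 fell, against 4.57% of all genes tested, none rose and the median was 0.03. The 6 libraries alone gave 4 lower and 8 higher, or 6 and 10 with the block, and limma-voom 9 and 11. PARP14, an ADP-ribosyltransferase of that list, fell by 0.71 (adjusted p = 0.00128). In MHC class I and antigen processing, 2 of 15 fell, TAP1, the peptide transporter, by 0.74 and HLA-C by 0.53, with a median of -0.40. Both genes lie on chromosome 6. The list median was -0.41 for parental against empty-vector cells and 0.08 for guide 1 against parental cells, where no gene of it passed.

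Small decreases were concentrated on particular chromosomes. Genes on chromosomes 3, 6 and 15 made up 14.2% of the genes tested and 33.3% of the lower calls (266 of 798), and 201 of those 266 changed less than 2-fold. On chromosome 6, 108 of 922 genes tested fell and the median was -0.15. On chromosome 15, 71 of 583 fell and the median was -0.17. On chromosome 3 the share differed along the chromosome, with 74 lower calls of 531 and a median of -0.14 from 70 Mb onward and 13 of 435 and a median of 0.04 before it. Over all other chromosomes 525 of 14768 genes fell (3.55%) and the median was 0.04. Seen by library, the medians of the 3 empty-vector libraries were 0.10 to 0.12 above the mean of all libraries on chromosome 6 and 0.10 to 0.11 on chromosome 15. Guide 1 libraries lay at -0.02 to -0.01 and -0.06 to -0.02, and none of the 9 other libraries exceeded 0.02 on either. Parental cells against the empty vector gave medians of -0.19 and -0.17 on chromosomes 6 and 15. Outside the comparison, guide 2 replicate 2 and parental replicate 1 stood above their groups on chromosomes 7, 8, 11, 13 and 20. Their medians there were 0.218 to 0.303 and 0.115 to 0.211, and both enter the shared estimate of the spread. The other guide 2 and parental libraries lay at -0.063 to 0.061. Guide 1 gave medians of -0.12 to -0.064 against parental cells and -0.172 to -0.113 against guide 2 on these chromosomes. The chromosomes and the 70 Mb boundary were picked after the data were seen, and what sets these levels was not tested. Without chromosomes 3, 6 and 15, 744 genes passed, 212 higher and 532 lower. Among the genes described above, BCHE, CLDN1, RASA2, TP63 and PARP14 lie on chromosome 3, and DSP, IER3, TNFAIP3, TREM2, CRISP3, TAP1 and HLA-C on chromosome 6.

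**Figure D4:**
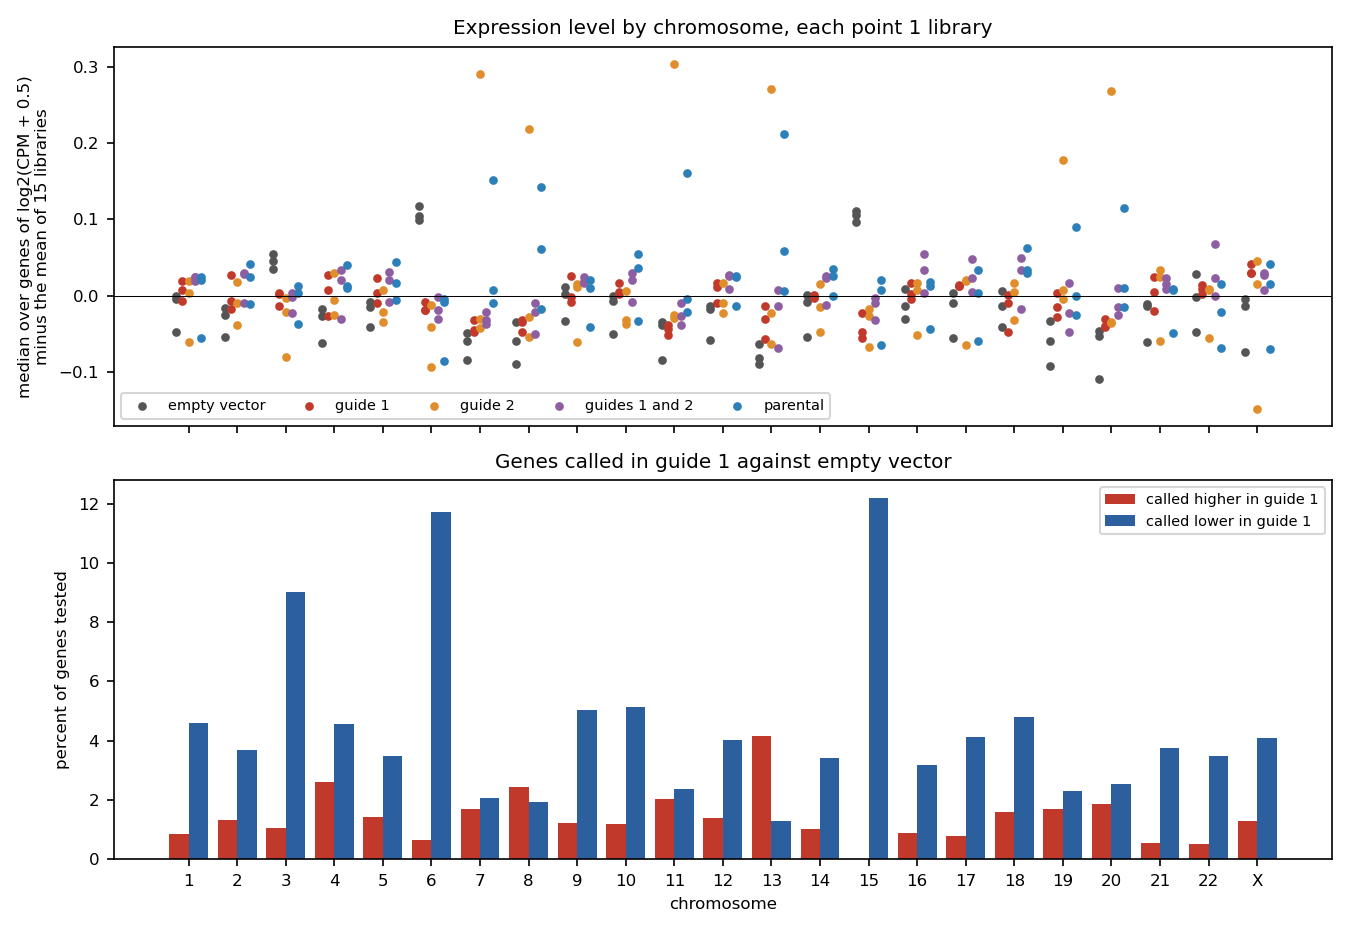
Top, for each chromosome, the median over its tested genes of log2(CPM + 0.5) minus the mean of the 15 libraries, 1 point per library coloured by group; bottom, the percent of tested genes called higher (red) or lower (blue) in guide 1. The 3 empty-vector libraries stand above every other library on chromosomes 6 and 15, the chromosomes with the tallest blue bars (11.7% and 12.2% of genes tested).

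A smaller set of calls held under each of these models. With the replicate block, with the 6 libraries alone, with both together and in each of the 6 fits that left out 1 library, 180 genes passed throughout, 158 lower and 22 higher. C9orf64, a queuosine salvage gene, had the smallest p-value. It read 2.38, 2.36 and 2.91 CPM in the empty vector and 0.0192, 0.038 and 0.0158 CPM in guide 1, on 420 and 5 counts (log2 fold change -6.54, SE 0.35, adjusted p = 1.67e-06). It was also 5.08 below parental cells and 6.59 below both-guide cells (adjusted p = 1.49e-05 and 7.67e-07), whereas guide 2 libraries were low too, at 0.0578 to 0.126 CPM, and did not differ past the threshold (adjusted p = 0.317). NUDT11, a diphosphoinositol polyphosphate phosphatase gene, had 404 counts in the empty vector and 1 in guide 1, a ratio of 476 with a 95% counting interval of 85.0 to 18800, and it passed against each of the 4 other groups. SDCBP2, a syntenin scaffold gene, fell from 17, 17.5 and 23.3 CPM to 1.17, 1.15 and 1.28 CPM (log2 fold change -4.01, adjusted p = 1.07e-04), and parental cells were 3.21 below the empty vector for it (adjusted p = 0.00101). L1CAM, a neural adhesion molecule, fell by 1.5 (adjusted p = 2.77e-04), with parental cells 1.3 below the empty vector (adjusted p = 0.00131). Among higher genes SLITRK5 rose by 1.3, SEMA5A by 1.21 and THYN1 by 0.79 (adjusted p = 0.00157, 0.00328 and 0.003115), and parental cells were above the empty vector by 1.11, 1.22 and 0.81 (adjusted p = 0.00368, 0.00366 and 0.00319).

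The 2 unedited groups also differed from each other. Parental against empty-vector cells gave 762 genes (4.37% of those tested), whereas guide 1 against parental cells gave 26 (0.149%), guide 1 against guide 2 gave 7 (0.0401%) and guide 1 against both guides gave 48 (0.275%). The main comparison and the parental comparison share the empty-vector libraries. Of the 1026 genes called against the empty vector, 12 were also called against parental cells. Against each of the 4 other groups 4 genes were called. Among the named genes NF1, JAM3, NUDT11, C9orf64, PYCARD and DKK3, a secreted WNT modulator, were lower in guide 1 than in parental cells. Their log2 fold changes there were -1.65, -5.48, -8.29, -5.08, -6.98 and -2.10, against -1.40, -4.83, -8.41, -6.54, -9.15 and -2.01 from the empty vector. PYCARD had no count in guide 1, so its fitted values are no bound. DCN, LUM, CRISP3, DNAH11 and BCHE, all higher against the empty vector, were 3.00, 2.76, 4.42, 2.29 and 2.44 above parental cells without passing (adjusted p = 0.0668 for each). Leaving out guide 1 replicate 3 raised the number of genes that differed from parental cells from 26 to 1371 and from guide 2 from 7 to 592.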

How the data were processed

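Poly(A) RNA of 15 MCF-10A libraries was sequenced, and the 6 libraries of guide 1 and the empty vector were compared. The authors deposited whole-number read counts per gene and a table of CPM. The deposited CPM equal the counts divided by library totals to within 4.91e-11, so gene levels are given in that unit. Trim Galore 0.6.0, STAR 2.7.8a and GRCh38 are named in the submitters' processing notes; the counting tool, its annotation and its strand setting are not given in the sources used here, so overlapping, antisense and near-identical genes are uncertain. Positions come from GENCODE 29.

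Counts were tested in R 4.3.3 with edgeR 4.0.16 (filterByExpr by genotype, TMM scaling, quasi-likelihood fit of genotype means over all 15 libraries, 10 residual degrees of freedom, two-sided). Genes were called at a Benjamini-Hochberg adjusted p under 0.05. A standard error is the absolute log2 fold change over the square root of F. Alternatives used limma 3.58.1 and DESeq2 1.42.0. The procedure was tested on simulated data for guide 1 against empty vector over 17174 genes: it recovered 52% of 2-fold and 80.8% of 4-fold changes, and 2.2% of its calls were false. Simulated libraries were independent and differed only in the changed genes, with no outlying library, replicate effect or chromosome shift. Since the real libraries differ in these ways, the rates do not measure the error of the calls above.

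The members and gene lists were chosen with earlier results of these data known. Named genes are NF1, the 12 highest and 12 lowest called coding genes with at least 1 CPM in a group and no overlap between libraries, the 6 smallest p-values in each direction, up to 4 called members of each of 39 lists, and the tested RAS brakes and ERK feedback genes. Other genes were picked after their values were seen, and some genes that the rule names are not reported here.

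Deviations from group means correlated at 0.136, 0.186 and 0.28 between guide 1 and empty-vector libraries of equal replicate number, and at -0.208 to 0.096 between other numbers. The labels number the replicates without saying that equal numbers were handled together. These correlations are weak, and replicate 3 stood apart in both groups, so the check does not settle whether the numbers pair the libraries. A fit with the number as a block is given where it changes a call.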

Additional observations from a re-analysis of the deposited data

How the results depend on the processing

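The number of genes called in guide 1 against empty vector was 1026 (228 higher, 798 lower) and moved most with the estimate of the spread. DESeq2 gave 1937 (537 higher, 1400 lower). The 6 libraries alone gave 2608 (951, 1657), the replicate block 567 (101, 466) and both together 4158 (1871, 2287). Limma-voom with quality weights gave 7424 (3645, 3779). A spread estimated without guide 2 replicate 2 gave 3236 (1155, 2081), and without parental replicate 2 as well 3857 (1659, 2198), an alternative added after seeing the data. Leaving out 1 library gave 215 to 980 genes (30 to 318 higher, 185 to 662 lower), and leaving out replicate 3 of both groups, also added, 161 (40, 121). A minimum of 2-fold gave 472 (89, 383). The NF1 log2 fold change ranged from -1.47 to -1.34 and passed in every setting run.

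Parental against empty vector (762) gave 400 with the replicate block and 145 to 374 without 1 library. Guide 1 against parental (26) gave 84 with no filter, 44 with the 2 groups alone, 9 with the block and 6 to 1371 without 1 library. Guide 1 against guide 2 (7) gave 23 with no filter and 2 to 592 without 1 library; with the 2 groups alone edgeR called 0, with 616 of 16496 genes at an unadjusted p under 0.05. Guide 1 against both guides (48) gave 82 with no filter, 1252 with the 2 groups alone, 20 with the block and 4 to 827 without 1 library.

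Of 104 called genes that the naming rule covers, not all of them described in the text, 72 kept the call with the replicate block, 103 with the 6 libraries alone and 34 to 75 without 1 library, and none changed sign. Signs turned for uncalled genes near 0. Leaving out 1 library gave -0.03 (guide 1 replicate 1) to 0.24 for DUSP4, -0.08 to 0.18 for DUSP5, -0.06 to 0.15 for ETV4, -0.02 to 0.19 for SPRY4 and -0.09 (guide 1 replicate 1) to 0.09 for PHLDA1. Without empty-vector replicate 2, PHLDA1 was -0.06; without empty-vector replicate 3, SPRY4 was -0.00 and ETV4 -0.06. ETV4 was -0.10 with voom, -0.01 without guide 1 replicate 3 and -0.15 without replicate 3 of both groups. Among the called genes that the text describes, the replicate block ended those whose stated block value lies above the threshold and no other. Those with a stated block value under the threshold kept their calls. The cause of these shifts was not tested. Depth limits genes under 3 counts per library.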

Other observations

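Of 16 Notch genes 3 fell, none rose and the median log2 fold change was -0.68, against 4.57% of all genes tested that fell. With the 6 libraries alone 10 of the 16 were lower, and with the replicate block 1. NOTCH4, a Notch receptor, fell by 2.39 (edgeR adjusted p = 0.00668) on 84 counts against 19, and the ligand JAG1 read 62.7, 58.6 and 103 CPM against 15.0, 13.3 and 14.1 CPM (adjusted p = 0.0471, and 0.0907 with the replicate block). JAG1 lost its call when any 1 of the 6 libraries was left out (highest edgeR adjusted p = 0.181). Of 25 TGF-beta targets and regulators 4 fell and 1 rose. The co-receptor TGFBR3 read 21.6, 21.2 and 17 CPM against 49.9, 51.0 and 39.9 CPM (log2 fold change 1.23, adjusted p = 0.006). INHBA, an activin chain, fell by 5.71 (adjusted p = 0.0262, and 0.0615 with the block), and PMEPA1, a TGF-beta target, fell by 0.85 (adjusted p = 0.00851). INHBA passed in 2 of the 6 fits that left out 1 library (highest adjusted p = 0.129), and TGFBR3 and PMEPA1 in all 6.

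Of 23 cholesterol synthesis genes 4 fell, none rose and the median was -0.05. HMGCS1, an early enzyme of the pathway, read 307, 290.0 and 265 CPM in the empty vector and 237, 191 and 175 CPM in guide 1 (log2 fold change -0.53, adjusted p = 0.0153). It lost its call without guide 1 replicate 2 (adjusted p = 0.075). Of 29 hypoxia and glycolysis genes 2 fell, against 4.57% of all genes tested. CA12, a carbonic anhydrase on chromosome 15, fell by 1.5 and the glucose transporter SLC2A1 by 0.92 (edgeR adjusted p = 0.0173 and 0.0118). They passed in 2 and 3 of the 6 fits that left out 1 library (highest adjusted p = 0.0749 and 0.0578). No p53 target of 22, NRF2 target of 21 or nuclear respiratory chain gene of 28 was called in the edgeR model of all 15 libraries. In the model of the 6 libraries with the block there were 4 higher and 2 lower, 6 higher and 1 lower, and 2 higher and 1 lower. In the first model, at an unadjusted p under 0.05 there were 2 higher and 2 lower, 0 higher and 1 lower, and 2 higher and 1 lower; DESeq2 called 0, 1 and 0, and limma-voom 9 higher and 2 lower, 2 higher and 1 lower, and 5 higher and 2 lower.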
